A study of Mus musculus with 8 samples.

Results

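The nuclear genes for the subunits and assembly factors of respiratory complexes I to V were compared between IL-6 knockout and control tumors. Members were taken by symbol and not by expression: every row whose symbol began with Ndufa, Ndufb, Ndufc, Ndufs, Ndufv, Uqc, Cox4 to Cox8 or Atp5, or was Sdha to Sdhd. Of the 107 rows found this way, 3 were named as pseudogenes and left out, which left 104 of the 27179 genes listed. There were 49 genes for complex I, 4 for complex II, 14 for complex III, 20 for complex IV and 17 for complex V. A filter of at least 1 CPM (count scaled to library size) in at least 4 of the 8 tumors passed 93 of them, with 45, 3, 13, 15 and 17 genes for the complexes in the same order.

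The samples were bulk tumors of C26, a mouse colon carcinoma line, grown under the skin of adult male CD2F1 mice. By the general methods of the study, mice were euthanized once their loss of body weight passed a fixed limit. Its RNA-seq methods give no harvest point. The cxC26 scr group held 4 tumors of the cachectic line that had received a scrambled guide, and the cxC26 IL6KOs1 group held 4 tumors of a subclone in which Il6 had been disrupted with CRISPR/Cas9. Every knockout tumor grew from the same subclone, so that the knockout and the properties of this clone cannot be told apart. Where the study carried tumors of this subclone in CD2F1 mice to weight loss, more knockout than control cells were implanted and the knockout tumors were taken later. The labels give neither for the sequenced tumors, so that inoculum and tumor age may also differ with the group and cannot be told apart from it. Poly(A) RNA was sequenced, and the values are log2 CPM.

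The respiratory chain passes electrons from NADH through complex I, and from succinate through complex II, to ubiquinone, complex III, cytochrome c and complex IV, which reduces oxygen. The proton gradient built on the way drives ATP synthesis by complex V. Most subunits are encoded in the nucleus, some occur as paralogs with a restricted tissue range, and a small set of core subunits is encoded in mitochondrial DNA. Many tumors keep this chain active beside a high rate of glycolysis.

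The depth was 14158989 to 17048062 gene reads a tumor. The read count of Il6, the targeted gene, was 326 to 438 in cxC26 scr and 56 to 86 in cxC26 IL6KOs1 tumors, in the direction of the labels. Of 8 epithelial carcinoma markers 3 passed the filter (Krt18, Cdh1 and Cdx2), and the 8 genes summed to 4.68 to 6.61 CPM in cxC26 scr and 14.6 to 26.9 CPM in cxC26 IL6KOs1 tumors. The 3 tested markers ran in both directions, with log2 fold changes of 3.20 for Krt18, 1.46 for Cdh1 and -5.27 for Cdx2, all called. Host cells contributed as well. Macrophage markers summed to 793 to 1054 CPM in cxC26 scr and 1631 to 2907 CPM in cxC26 IL6KOs1 tumors, and 8 of 8 were higher in the latter. Skeletal muscle markers ranged widely within both groups, from 12.9 to 183 CPM and from 31.4 to 379 CPM. In bulk tissue, fewer cells of a type and less RNA per cell cannot be told apart, and the part of these shifts in the values below was not tested.

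Differences in the respiratory chain genes were small and ran in both directions. With an adjusted p-value under 0.05 (limma, Benjamini-Hochberg over all tested genes), 20 of the 93 tested members were higher in cxC26 IL6KOs1 tumors and 9 were lower, or 31.2% in all. Among all 13262 tested genes 39.8% were called, 19.1% higher and 20.7% lower, so that the members did not stand above the background of this comparison. The median log2 fold change was 0.15 for the members and -0.00 for all tested genes, and the median size of the change, without its sign, was 0.20 for the members and 0.30 for all tested genes. In 28 members (30.1%) the groups did not overlap, against 37.1% of all tested genes. A change of at least 2-fold was called for 1 member, Cox6a2.

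**Figure D1:**
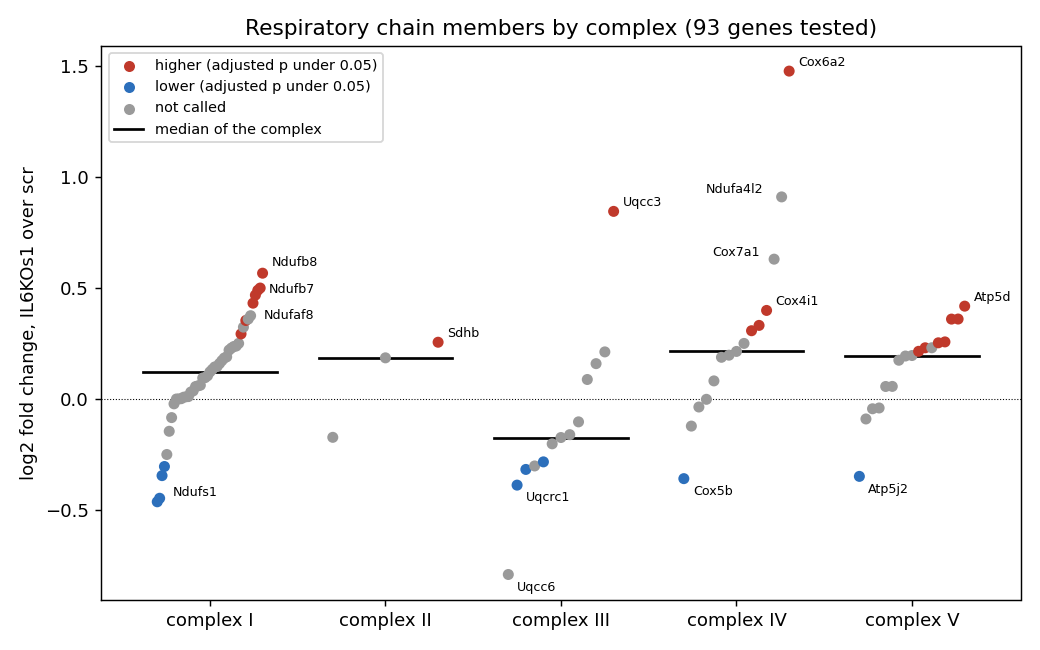
Log2 fold change of cxC26 IL6KOs1 over cxC26 scr tumors for the 93 tested members, by complex. Each point is a gene, red and blue points passed the test in the higher and the lower direction, and black lines mark the medians of 0.12, 0.19, -0.17, 0.22 and 0.20 for complexes I to V.

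In complex I, the NADH dehydrogenase, 7 of 45 tested genes were higher and 4 were lower (24.4% in all, against 39.8% of all tested genes). The median log2 fold change was 0.12. Nuclear core subunits, which carry the flavin and the iron-sulfur clusters, lay on both sides. Ndufs1, the largest iron-sulfur subunit, was 6.83, 6.94, 7.04 and 6.99 log2 CPM in the cxC26 scr tumors (replicates 1 to 4) and 6.54, 6.36, 6.54 and 6.58 in the cxC26 IL6KOs1 tumors, without overlap. Its log2 fold change was -0.45 ± 0.08 (SE, adjusted p = 0.00131), which leaves 73.4% of the control level.

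Other core subunits moved the opposite way. Ndufs7, which holds the last iron-sulfur cluster before ubiquinone, was 5.66, 5.77, 5.54 and 5.59 log2 CPM in cxC26 scr and 6.07, 6.36, 6.24 and 5.84 in cxC26 IL6KOs1 tumors. The lowest knockout tumor stood 0.08 above the highest control, and the log2 fold change was 0.49 ± 0.11 (adjusted p = 0.00526). Ndufs8, a further iron-sulfur subunit, rose from 5.73, 5.83, 5.97 and 5.82 to 6.25, 6.29, 6.38 and 6.30, a log2 fold change of 0.47 ± 0.08 (adjusted p = 0.000917). Ndufv1, the flavin-bearing subunit that takes electrons from NADH, gave 0.19 ± 0.09 (adjusted p = 0.123), Ndufv2 0.11 and Ndufs3 0.06, none of which passed the test. Subunits that sit next to each other in the same arm of the enzyme thus had transcripts that differed between the groups in opposite directions.

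Of the 29 accessory subunits of complex I, 4 were higher (Ndufb8, Ndufb7, Ndufb5 and Ndufc1), 2 were lower (Ndufa10 and Ndufb3) and 23 were not called. The called share was 20.7%, against 39.8% of all tested genes. Ndufb8, a membrane arm subunit, was 5.54, 5.56, 5.28 and 5.30 log2 CPM in cxC26 scr and 5.85, 6.14, 6.07 and 5.89 in cxC26 IL6KOs1 tumors. It rose by 0.57 ± 0.10 on the log2 scale (adjusted p = 0.00128), to 148% of the control level, with a gap between the groups. Ndufb7, also of the membrane arm, rose from 4.91, 5.16, 5.12 and 4.96 to 5.34, 5.79, 5.60 and 5.42, a log2 fold change of 0.50 ± 0.12 (adjusted p = 0.00504). Ndufa10 fell by 0.34 on the log2 scale (adjusted p = 0.0285), and its groups met, since the highest knockout tumor (6.22) stood above the lowest control (6.20). The 23 uncalled accessory subunits lay between -0.25 (Ndufa3) and 0.38 (Ndufa8). Of the 8 assembly factors of the Ndufaf series only Ndufaf8 was called (12.5%). It was 3.61, 3.90, 4.11 and 3.79 in cxC26 scr and 4.19, 4.36, 4.28 and 4.31 in cxC26 IL6KOs1 tumors (log2 fold change 0.43 ± 0.13, adjusted p = 0.0178).

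Complex II, succinate dehydrogenase, has 4 subunits and no mitochondrially encoded one. Sdhb, the iron-sulfur subunit, was 6.75, 6.88, 6.97 and 6.90 log2 CPM in cxC26 scr and 7.20, 7.23, 7.10 and 7.01 in cxC26 IL6KOs1 tumors. It rose by 0.26 ± 0.08 on the log2 scale (adjusted p = 0.0274), to 119%. Sdha, the flavoprotein, also separated the groups, at 8.09, 8.07, 7.99 and 8.01 against 8.15, 8.25, 8.26 and 8.24, but its log2 fold change of 0.19 ± 0.07 did not pass (adjusted p = 0.06). Sdhc, a membrane anchor, gave -0.17 ± 0.10 (adjusted p = 0.204). Sdhd, the other anchor, did not pass the filter: it had 9, 13, 7 and 3 reads in the control and 5, 8, 14 and 12 reads in the knockout tumors, where Sdha had 3618 reads or more in every tumor.

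Complex III, which oxidizes ubiquinol, was the complex with a median below 0 (-0.17). Of its 13 tested genes 1 was higher and 3 were lower (30.8% in all, against 39.8% of all tested genes). Uqcrc1, 1 of the core proteins on the matrix side, was 7.50, 7.22, 7.13 and 7.02 log2 CPM in cxC26 scr and 6.68, 7.13, 6.76 and 6.74 in cxC26 IL6KOs1 tumors. Its log2 fold change was -0.39 ± 0.12 (adjusted p = 0.0269), although knockout replicate 2 stood above control replicate 4. Uqcrc2, the partner core protein, fell from 7.09, 7.31, 7.41 and 7.39 in the control to between 6.89 and 7.02 in the knockout tumors, a log2 fold change of -0.32 ± 0.09 (adjusted p = 0.0135). Uqcrfs1, the Rieske iron-sulfur protein, gave 0.16 ± 0.09 (adjusted p = 0.166), and Uqcrb and Uqcrh gave 0.21 and 0.09 without passing. The assembly factors diverged most. Uqcc3 was 3.18, 3.68, 3.43 and 3.38 in the control and 4.20, 4.33, 4.35 and 4.18 in the knockout tumors, a rise by 0.85 ± 0.13 (adjusted p = 0.000484) to 180%. Uqcc2 fell by 0.28 on the log2 scale (adjusted p = 0.0256), and Uqcc1, Uqcc4, Uqcc5 and Uqcc6, at -0.20, -0.10, -0.30 and -0.79, were not called.

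In complex IV, cytochrome c oxidase, 4 of 15 tested genes were higher and 1 was lower (33.3% in all, against 39.8% of all tested genes). The median log2 fold change was 0.22. Among the 11 ubiquitous subunits, Cox4i1 and Cox5a rose and Cox5b fell (27.3% called). Cox4i1, the broadly expressed form of subunit 4, was 8.39, 8.51, 8.12 and 8.13 log2 CPM in cxC26 scr and 8.48, 9.09, 8.74 and 8.44 in cxC26 IL6KOs1 tumors. The groups overlapped, knockout replicate 2 was far above the rest, and the log2 fold change was 0.40 ± 0.15 (adjusted p = 0.0472). Cox5a, which binds near subunit 4 on the matrix side, gave 0.33 ± 0.12 (adjusted p = 0.0418), also with overlap. Cox5b, the zinc-binding matrix subunit, separated the groups, at 7.01, 7.09, 6.85 and 6.86 against 6.51, 6.73, 6.71 and 6.41, with a log2 fold change of -0.36 ± 0.10 (adjusted p = 0.0126). Cox6a1, Cox6b1, Cox6c, Cox7a2, Cox7b, Cox7c, Cox8a and Ndufa4 lay between -0.12 and 0.25 and were not called. Cox7a2l, which takes part in joining complexes III and IV into supercomplexes, rose by 0.31 ± 0.10 (adjusted p = 0.0347).

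Paralogs of complex IV subunits with a restricted tissue range were close to the limit of detection in both groups. Of the 8 genes, 3 passed the filter (Cox6a2, Cox7a1 and Ndufa4l2), and Cox7b2 and Cox8c had 0 reads in all 8 tumors, a count that allows up to 3 reads in each. Cox6a2, the heart and skeletal muscle form of subunit 6a, had 5, 15, 7 and 4 reads in cxC26 scr and 17, 14, 19 and 30 reads in cxC26 IL6KOs1 tumors. These reads gave -1.60, -0.06, -0.92 and -1.77 against 0.11, 0.07, 0.31 and 1.07 log2 CPM, a log2 fold change of 1.48 ± 0.44 (adjusted p = 0.0206). Skeletal muscle markers summed to 46.0, 183, 48.7 and 12.9 CPM in the same control tumors and 31.4, 93.6, 119 and 379 CPM in the knockout tumors. The tumor with the most muscle marker reads in each group was thus also the tumor with the highest Cox6a2 level in its group. Between the groups the order differed, since knockout replicate 1, with 31.4 CPM of muscle markers, stood above control replicate 2, with 183 CPM, in Cox6a2. Cox6a2 also overlaps Itgad, and its reads cannot be assigned to either gene with certainty.

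Cox7a1, the muscle form of subunit 7a, gave 0.63 ± 0.41 (adjusted p = 0.242). Its ubiquitous partner Cox7a2 had only 21 to 43 reads in each tumor. Ndufa4l2, a hypoxia-responsive paralog of Ndufa4, gave 0.91 ± 0.46 (adjusted p = 0.135) and overlaps Shmt2. The ratio of each restricted form to its ubiquitous partner was compared within tumors for the 6 pairs with reads by a two-sided exact permutation test, whose smallest p is 0.0286. None passed. The Cox6a2 to Cox6a1 log2 ratio was -8.04 ± 0.78 (SD, n = 4) in cxC26 scr and -6.78 ± 0.58 in cxC26 IL6KOs1 tumors (exact permutation p = 0.0571, adjusted 0.171). Cox6b2, the testis form of subunit 6b, had a log2 ratio to Cox6b1 of -8.56 ± 0.60 and -7.70 ± 0.49 (exact permutation p = 0.0571, adjusted 0.171), and for Cox4i2, Cox7a1, Cox8b and Ndufa4l2 the exact p lay between 0.114 and 0.657. Per kilobase of transcript, the cxC26 scr tumors held 0.775 CPM of Cox6a2 and 218 of Cox6a1, and 1.13 CPM of Cox4i2 and 411 of Cox4i1.

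Complex V, the ATP synthase, had the highest share of called genes, 8 of 17 (47.1%, against 39.8% of all tested genes), of which 7 were higher and 1 was lower. The median log2 fold change was 0.20. None of these 8 calls remained when the median log2 fold change of each chromosome was subtracted. Atp5c1, not called before, was then called higher. Atp5b, the catalytic beta subunit of F1, was 9.96, 9.83, 9.70 and 9.70 log2 CPM in cxC26 scr and 10.10, 10.34, 10.09 and 10.10 in cxC26 IL6KOs1 tumors, without overlap. Its log2 fold change was 0.36 ± 0.10 (adjusted p = 0.0165), or 128% of the control level. Atp5a1, the alpha subunit that alternates with beta in the same ring, gave 0.06 ± 0.09 (adjusted p = 0.634). Atp5d, the delta subunit of the F1 stalk, rose from 5.82, 5.60, 5.64 and 5.20 to 5.89, 6.19, 6.01 and 5.84, a log2 fold change of 0.42 ± 0.13 (adjusted p = 0.0247).

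Among the 12 genes of the Fo part and the peripheral stalk, 5 were higher and Atp5j2 was lower (50% called, against 39.8% of all tested genes). Atp5md, a small membrane subunit, rose from 6.32, 6.60, 6.48 and 6.55 to 6.83, 6.96, 6.86 and 6.74, a log2 fold change of 0.36 ± 0.09 (adjusted p = 0.00643). Atp5j2, the f subunit, fell from 6.76, 7.04, 7.09 and 6.95 to 6.62, 6.67, 6.64 and 6.50, a log2 fold change of -0.35 ± 0.09 (adjusted p = 0.00934). The stalk subunits Atp5pb, Atp5o and Atp5j and the g subunit Atp5l rose by 0.26, 0.23, 0.22 and 0.25 on the log2 scale. The c ring is encoded by 3 genes with the same mature protein, and Atp5g1, Atp5g2 and Atp5g3 gave -0.04, 0.20 and 0.23 without passing the test. Sequence shared with other genes covered 86.4% of the Atp5g2, 69.0% of the Atp5l and 30.3% of the Atp5o transcript in windows of 100 bases, so that these reads are uncertain. Over all complexes 34 members overlap another RefSeq gene and 21 share over 10% of their windows. The latter include Atp5md (28.5%, overlapping Taf5), Uqcrc2 (22.7%, overlapping Pdzd9), Atp5pb (16.8%), Cox5a (13.6%) and Cox7a2l (11.7%).

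**Figure D2:**
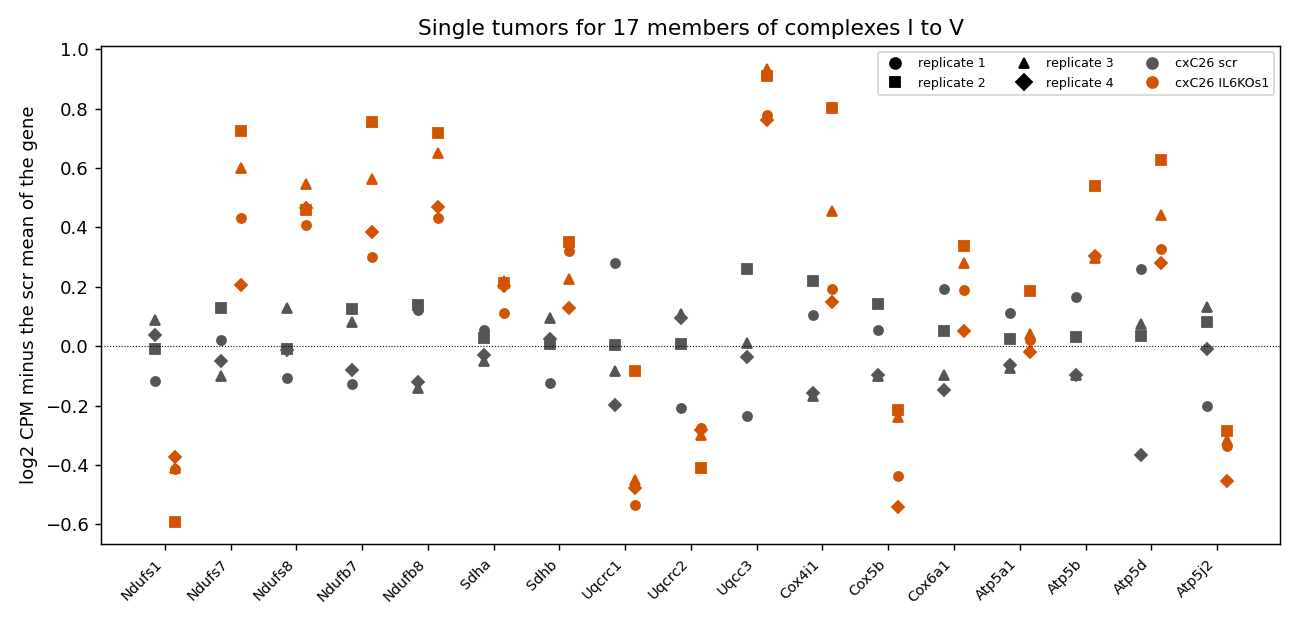
Log2 CPM of 17 members in each of the 8 tumors, minus the mean of the 4 cxC26 scr tumors of that gene. Grey and orange symbols are the cxC26 scr and cxC26 IL6KOs1 tumors and the shape gives the replicate number: Ndufs1 lies below and Ndufs7, Ndufs8 and Uqcc3 above all control tumors, and knockout replicate 2 (square) is the highest for Cox4i1 and Atp5b.

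How far the calls rest on single tumors was examined by leaving each out in turn. Of the 19 called members among the genes named by rule, 10 were called in all 8 of these fits (among them Ndufs1, Ndufs7, Ndufb7, Ndufb8, Uqcc3, Uqcrc2, Cox5b and Atp5j2). The other 9 lost the call in 2 or more fits. Sdhb lost it in 6 of the 8, Uqcrc1, Cox4i1, Cox5a and Cox7a2l in 5, Ndufa10 in 4, Atp5d in 3, and Atp5b and Cox6a2 in 2. With all tumors 21.5% of the members and 19.1% of all tested genes were called higher. The number of members called higher was 12 without cxC26 scr replicate 3 (12.9%, against 15.3% of all tested genes in that fit), 8 without cxC26 scr replicate 4 (8.6%, against 15.3%), 10 without cxC26 IL6KOs1 replicate 2 (10.8%, against 16.7%) and 11 without cxC26 IL6KOs1 replicate 3 (11.8%, against 15.9%). The number called lower was 5 without cxC26 scr replicate 2 (5.38%, against 17.9%) and 5 without cxC26 IL6KOs1 replicate 1 (5.38%, against 19.9%), where it was 9 with all tumors (9.68%, against 20.7%). The share of all tested genes called thus fell in these fits as well.

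The direction of most called members went with the chromosome on which the gene lies. All 6 members on chromosome 1 (among them Cox5b, Ndufs1 and Sdhc) were below 0 and 5 were called lower, and the median of the 752 other tested genes of this chromosome was -0.34. All 6 tested members on chromosome 19 (Ndufs8, Ndufv1, Cox8a, Uqcc3, Ndufb8 and Atp5md) were above 0 and 4 were called higher, where the median of the 464 other genes was 0.33. On chromosome 10 (other genes 0.32), Atp5d, Ndufs7 and Atp5b were called higher, and Uqcc6, at -0.79 and not called, lay on the other side. On chromosome 7 (other genes -0.27) Uqcrc2 was called lower and Cox6a2 higher, and on chromosome 5 (other genes -0.24) Atp5j2 was called lower. Ndufs1 at -0.45 and Ndufs7 at 0.49, on opposite sides within complex I, thus stood on the same side as their chromosomes.

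On the 5 chromosomes whose other genes had a median beyond 0.2 in either direction, 15 of 29 tested members were called (51.7%, against 53.5% of all tested genes there), and 14 of these 15 were on the side of their chromosome. The exception was Cox6a2. On the remaining chromosomes 14 of 64 were called (21.9%, against 34.9% of all tested genes there), 12 of them higher. Across the 93 members the log2 fold change had a Pearson r of 0.40 and a Spearman rho of 0.53 with the median of the other genes of the chromosome, as a description only, since members of 1 chromosome share that median and all values come from the same 8 libraries.

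**Figure D3:**
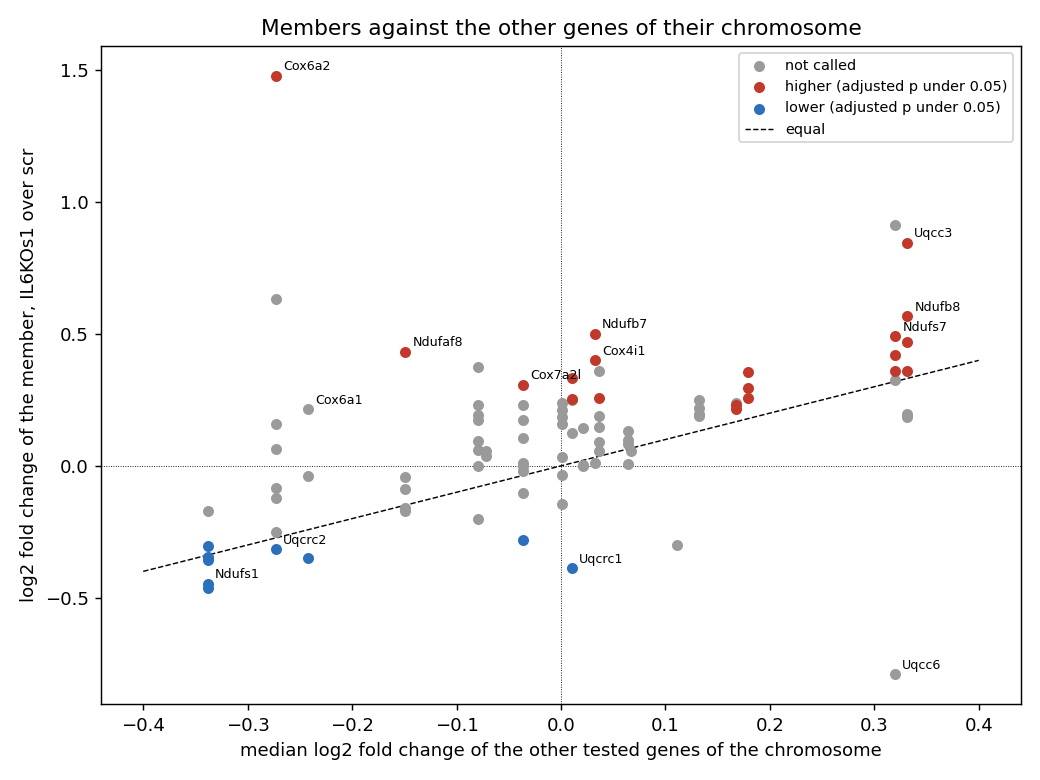
Log2 fold change of each tested member against the median log2 fold change of the other tested genes on its chromosome, with the line of equal values. All 12 members on chromosomes 1 and 19 lie on the side of their chromosome, and Cox6a2, Uqcc6, Ndufb7, Cox4i1, Ndufaf8 and Uqcrc1 lie away from the line.

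When the chromosome median was subtracted, 10 of 93 members were called (10.8%, against 31.6% of the 12979 genes in that fit), 8 higher and 2 lower, and 6 of the 29 original calls remained, all in the same direction. These were Ndufb7, Ndufaf8, Uqcc3, Uqcrc1, Cox6a2 and Cox7a2l. Calls were added for Cox6a1 (0.46 ± 0.10, adjusted p = 0.00422 in limma), Ndufc2 and Atp5c1 in the higher and Uqcc6 in the lower direction. Ndufs1, Ndufs7, Ndufs8, Ndufb8, Cox5b, Atp5b and Atp5d were no longer called, at -0.11, 0.17, 0.14, 0.24, -0.02, 0.04 and 0.09. Atp5md, Atp5j2, Atp5j, Atp5o and Atp5pb also lost the call, at 0.03, -0.11, 0.05, 0.06 and 0.08. With Atp5b, Atp5d and Atp5l, these were all the original calls of complex V. Some lost calls were of changes that barely moved and had been close to the threshold. Uqcc2 went from -0.28 to -0.25 (adjusted p = 0.0505 in limma after the subtraction), Cox4i1 from 0.40 to 0.37 (0.0765), Cox5a from 0.33 to 0.32 (0.0598), Atp5l from 0.25 to 0.24 (0.0638) and Sdhb from 0.26 to 0.22 (0.0614). The part of the chromosome in the changes of the members was not tested. Uqcrc1 lies on chromosome 9, where the other genes had a median of 0.01, but the 120 other tested genes within 5 Mb of it had a median of -0.37, close to its own -0.39. For Ndufb7 and Cox4i1, both on chromosome 8, the medians within 5 Mb were 0.05 and -0.00, against 0.50 and 0.40 for the genes themselves. Cox6a1 stood at 0.22 before the subtraction, and the other genes of chromosome 5 had a median of -0.24. The 83 other tested genes within 5 Mb of it had a median of 0.07. For Ndufc2, Atp5c1 and Uqcc6 the medians within 5 Mb were -0.19, 0.005 and 0.28. Those of their chromosomes were -0.27, -0.08 and 0.32.

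The members are short, with a median transcript length of 1129 bases against 3377 for all tested genes. After a joint correction for GC content and length the median of the members was 0.04, with 11 called higher and 11 lower (23.7% in all, against 39.1% of the 12755 genes in that fit), and the parts of GC content and of length were not tested apart. With quantile normalization 25 were higher and 6 lower (33.3%, against 39.5% of all tested genes). Within groups, knockout replicate 2 was the highest of its 4 tumors in 64 of 93 members and control replicate 2 in 45 of 93. The mean log2 CPM of the tested complex IV genes was 4.99, 5.34, 4.98 and 4.99 in cxC26 scr and 5.23, 5.57, 5.46 and 5.23 in cxC26 IL6KOs1 tumors, so that control replicate 2 lay within the knockout range. This mean counts Cox6a2, Cox7a1 and Ndufa4l2, near the limit of detection, as much as the abundant subunits. Each of them was highest in replicate 2 among the control tumors. Their part in the complex IV mean was not tested. The median log2 fold change of the 11 ubiquitous subunits was 0.19. Cytosolic ribosomal protein genes had a mean of 8.81, 8.94, 8.89 and 8.77 against 8.87, 9.21, 8.98 and 8.77, with replicate 2 again the highest of each group. All 104 members together held 0.825% to 0.891% of the normalized reads in cxC26 scr and 0.865% to 1.02% in cxC26 IL6KOs1 tumors, with overlap.

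**Figure D4:**
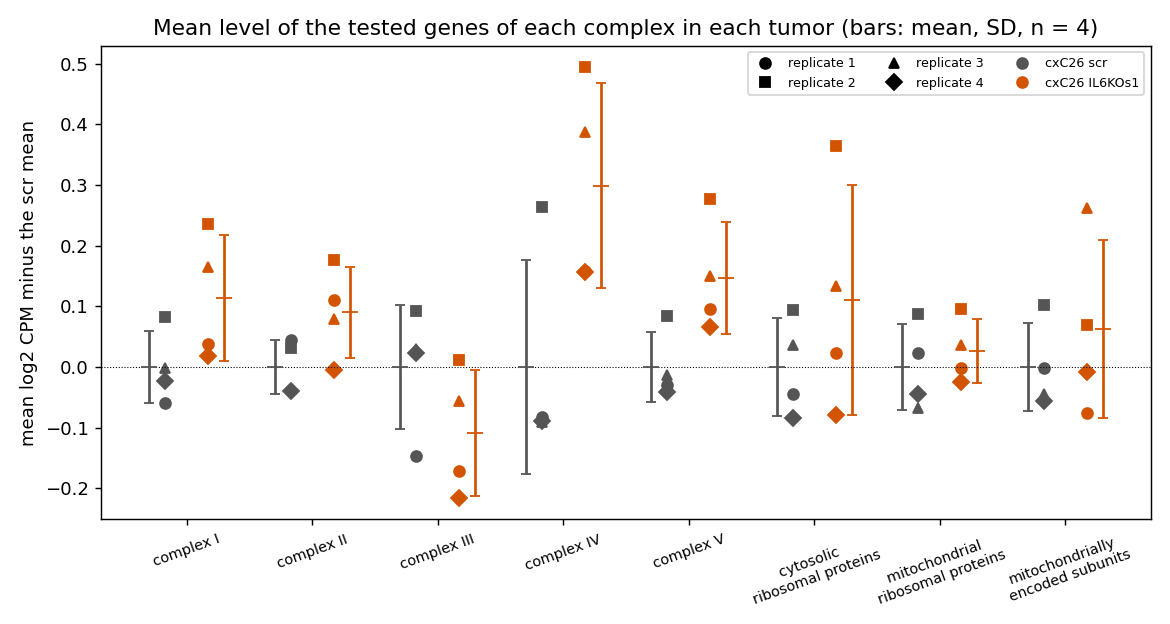
Mean log2 CPM of the tested genes of each complex and of 3 gene lists in each tumor, minus the mean of the 4 cxC26 scr tumors. Bars beside the points give the mean and SD of each group (n = 4). The mean differences were 0.11, 0.09, -0.11, 0.30 and 0.15 for complexes I to V, and knockout replicate 2 (square) was the highest knockout tumor in all 5. The complex IV mean weighs its 15 genes equally. It includes Cox6a2, Cox7a1 and Ndufa4l2, each at 30 reads or fewer per tumor, with log2 fold changes of 1.48, 0.63 and 0.91.

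Levels within the chain spanned a wide range. Per kilobase of the principal annotated transcript, the cxC26 scr tumors had 466 CPM of Atp5b, 411 of Cox4i1, 306 of Cox8a, 299 of Atp5g3 and 262 of Atp5a1. Sdhb and Sdha stood at 103 and 90.9 CPM per kilobase and Ndufs1 at 46.5. The complex I assembly factors were between 2.97 (Ndufaf3) and 26.3 (Ndufaf2). Sdhd, Uqcr11 and Cox7a2, although subunits of every cell's chain, stood at 0.438, 0.185 and 3.06, and Uqcr11 had 1, 0, 2 and 0 reads in the control tumors and none in the knockout tumors. Sdhd and Uqcr11 overlap no other annotated gene and share no 100-base window with one. Cox7a2 overlaps Gm51685 and Tmem30a. Why these genes hold so few reads was not tested.

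Further members below the filter were paralogs. Ndufb11b had 0 reads, Ndufa11b had at most 2 reads in a tumor, and Ndufb4b and Ndufb4c had between 3 and 20. Cox4i2, the form of subunit 4 known from lung and oxygen-sensing cells, had 24, 10, 6 and 11 against 24, 8, 8 and 7 reads. Cox6b2 and Cox8b had 15 reads or fewer in each tumor.

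Promoters of respiratory chain genes are known to carry sites for nuclear respiratory factor 1 (NRF1), for ETS-family factors such as NRF2 (GABP), and for YY1. RefSeq promoters on GRCm38.p6, from 250 bases before to 50 bases after the start, were matched to 84 of the 104 members and searched on both strands. GCGCATGC, part of the NRF1 motif, stood in 12 of 84 members (14.3%), against 3.05% of all 27025 promoters and 5.85% of those of tested genes. Its forms on the 2 strands overlap each other and were counted once per promoter. CCGGAAG, an ETS core, stood in 20 members (23.8%, against 9.93% and 19.8%), and AAGATGG, part of the YY1 motif, in 13 (15.5%, against 7.28% and 8.31%). CCGGAAG can overlap AAGATGG by the letters AAG.

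The calls among these members were counted for each motif, and the motifs were not tested against each other. Of the 12 with GCGCATGC, Sdhb and Atp5l were called higher, Uqcrc1 was called lower and 9 were not called or not tested. Of the 20 with CCGGAAG 18 were tested in limma and 7 were called higher and 0 lower (9 and 0 at an unadjusted p under 0.05, 6 and 0 with voom weights), and of the 13 with AAGATGG 6 were higher and 2 lower. Among all tested genes with the same letters, 14.2% were called higher and 22.1% lower for GCGCATGC, 13.5% and 22.2% for CCGGAAG, and 17.2% and 22.1% for AAGATGG. The bases before the start are printed for 4 members that differ in outcome, 5′ to 3′ on the strand of the gene, with the NRF1 and ETS letters, on either strand, in capitals. They are Cox6a1 (chr5:115348959-115349128, minus strand, not called), Ndufaf8 (chr11:120098814-120098933, plus strand, higher), Atp5l (chr9:44920873-44920992, minus strand, higher) and Uqcr11 (chr10:80406822-80406941, minus strand, nearly without reads). The Atp5l stretch covers 250 to 131 bases before the start, and the other stretches end 1 base before it.
Cox6a1: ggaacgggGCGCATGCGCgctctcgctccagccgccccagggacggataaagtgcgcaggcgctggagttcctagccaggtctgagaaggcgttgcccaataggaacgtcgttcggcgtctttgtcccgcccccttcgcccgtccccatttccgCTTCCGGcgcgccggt
Ndufaf8: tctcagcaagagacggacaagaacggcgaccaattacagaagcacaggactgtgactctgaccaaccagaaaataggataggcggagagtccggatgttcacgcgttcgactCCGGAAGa
Atp5l: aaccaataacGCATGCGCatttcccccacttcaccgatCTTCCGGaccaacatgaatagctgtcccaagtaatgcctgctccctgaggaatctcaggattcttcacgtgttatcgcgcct
Uqcr11: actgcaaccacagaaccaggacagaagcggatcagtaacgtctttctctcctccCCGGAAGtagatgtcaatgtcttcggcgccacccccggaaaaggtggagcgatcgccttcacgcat
Cox6a1 and Atp5l carry both motifs, and Ndufaf8 and Uqcr11 the ETS letters within the stretch shown. A match describes the letters only and was not linked to binding.

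Genes that work beside the chain were read from lists. Of 9 tested partners outside the symbol pattern or shared with it, 3 were higher and 0 lower in limma (0 lower also at an unadjusted p under 0.05 and with voom weights). That was 33.3%, against 39.8% of all tested genes. Slc25a3, the mitochondrial phosphate carrier that supplies complex V, rose from 8.50, 8.37, 8.09 and 8.09 to 8.71, 9.05, 8.82 and 8.64 (log2 fold change 0.54 ± 0.12, adjusted p = 0.00414), and lies on chromosome 10. Higd1a, a hypoxia-inducible factor of complex IV, gave 0.38 ± 0.14 (adjusted p = 0.0461). Cytochrome c (Cycs) and cytochrome c1 (Cyc1) gave 0.06 and 0.22 and were not called.

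Few assembly factors outside the pattern were called. Of 34 tested, 0 were higher and 4 were lower at an adjusted p-value under 0.05 in limma (11.8%, against 39.8% of all tested genes), with a median log2 fold change of -0.14, and the list was not tested against the members. At an unadjusted p under 0.05 these counts were 0 and 7, and with voom weights 0 and 4. Coa4, which helps to assemble complex IV, fell from 3.47, 3.50, 3.50 and 3.43 to 3.06, 2.75, 2.90 and 3.01 (log2 fold change -0.55 ± 0.13, adjusted p = 0.00645), and Sdhaf1, which brings iron-sulfur clusters to Sdhb, fell by 0.44 on the log2 scale (adjusted p = 0.0191). Both lie on chromosome 7. Cox11, a copper chaperone of complex IV, and Atpaf1, an F1 assembly factor, fell by 0.41 and 0.39 (Atpaf1 adjusted p = 0.0326).

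Of the 13 mitochondrially encoded subunits, 2 were higher, COX3 by 0.44 ± 0.14 (adjusted p = 0.0261) and ND6 by 0.46 ± 0.11 (adjusted p = 0.00814), and 0 were lower in limma, with 0 at an unadjusted p under 0.05 and 0 with voom weights. COX1, the catalytic subunit of complex IV, gave 0.06 and CYTB of complex III -0.07. The median over the 13 was 0.03, and 15.4% were called, against 39.8% of all tested genes. COX2, COX3 and ATP6, at 5.14, 4.10 and 4.41 log2 CPM in the control, stood far below COX1 at 12.6, and the part of poly(A) selection and of reads that match several places in this was not tested.

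Mitochondrial ribosomal proteins, which translate those subunits, had 12 of 77 higher and 9 lower, among them Mrpl16 (0.65) and Mrps17 (-0.79). Their called share was 27.3%, against 39.8% of all tested genes. Cytosolic ribosomal proteins had 13 of 80 higher and 5 lower (22.5%), with a median of 0.12, close to the 0.15 of the members. In the tricarboxylic acid cycle 1 of 14 was higher and 3 were lower (28.6%). Cs, citrate synthase, rose by 0.57 ± 0.11 (adjusted p = 0.00193) and lies on chromosome 10, whereas Mdh2, Idh2 and Fh1 fell by 0.42, 0.40 and 0.34 and lie on chromosomes 5, 7 and 1.

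In ubiquinone synthesis, which makes the carrier between complexes I, II and III, 4 of 13 were higher and 2 lower (46.2% in all). Coq8a, an atypical kinase of the pathway, was 1.21, 1.49, 0.95 and 1.25 log2 CPM in cxC26 scr and 2.77, 2.57, 3.59 and 3.20 in cxC26 IL6KOs1 tumors, a rise by 1.81 ± 0.24 (adjusted p = 0.000185) against the direction of chromosome 1. Its paralog Coq8b fell from 4.67, 4.21, 4.59 and 4.64 to 3.68, 3.73, 3.75 and 3.87 (log2 fold change -0.77 ± 0.13, adjusted p = 0.000709). Both pairs of groups were apart. Coq3 rose by 0.69 (adjusted p = 0.00295). Of 13 regulators of mitochondrial biogenesis, Ppargc1b, a coactivator of respiratory genes, rose by 1.12 ± 0.37 from a low level (adjusted p = 0.0322), and Tfb2m, a mitochondrial transcription factor, fell by 0.80 (adjusted p = 0.000606). Of 11 hypoxia-inducible factor targets, Higd1a was higher and Ldha, lactate dehydrogenase A, was lower, by 0.53 on the log2 scale (adjusted p = 0.0196), with a median of -0.25. The called share was 15.4% of the regulators and 18.2% of these targets, against 39.8% of all tested genes.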

How the data were processed

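Trimmomatic, HISAT2 (on mm10) and featureCounts were run by the authors, who deposited log2 CPM made with limma-voom. Strand setting and annotation were not given in the sources used here. Per the labels, bcl2fastq 2.17 was used. Whole reads were recovered from the deposited log2 values (100% whole within 0.01). The groups were compared with limma 3.58.1 in R 4.3.3 (eBayes with trend, Benjamini-Hochberg, threshold 0.05) over the 13262 genes passing the filter, without covariates, and tested on simulated data. P-values measure the spread between tumors. Paralog ratios were compared by exact permutation in Python 3.11.15. Values after ± are limma standard errors or SDs over 4 tumors, and they measure that spread too. The bound of up to 3 reads for a count of 0 covers counting error only. Positions came from RefSeq GRCm38.p6, lengths from GENCODE transcripts.

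The members, lists and tests were chosen with earlier results of these data known. Genes named by rule were Il6, the paralogs of complex IV and the c ring, Ndufs1, Ndufv1, Sdha to Sdhd, Uqcrc1, Uqcrc2, Uqcrfs1, Atp5a1, Atp5b, Cyc1, Cycs, the 3 largest called changes in each direction in complexes I, IV and V (1 in II and III), and up to 2 called genes per list and direction. A gene chosen by this rule is not reported here. Other members are named to account for their role, after their values were seen. The remaining marker lists gave, higher and lower, 7 and 1 of 8 (leukocyte), 6 and 0 of 6 (T cell), 2 and 0 of 9 (skeletal muscle), 0 and 1 of 1 (brown adipocyte), 0 and 0 of 5 (adipocyte, limma, also at an unadjusted p under 0.05 and with voom weights), 0 and 1 of 6 (pericyte), 0 and 1 of 7 (endothelial) and 1 and 3 of 7 (fibroblast). Alternatives were other filters, scalings, variance models, pseudocounts and thresholds, a replicate block, each tumor left out, and corrections for chromosome, GC content and length. A count without overlapping or shared genes was added after seeing the data.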

Additional observations from a re-analysis of the deposited data

Results flagged for a closer look

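Among 146 groups of 4 tumors searched over the scores and named genes, 10 had a tumor that stood apart by Dixon's test at the 95% level, where chance gives about 1 in 20 groups. The complex IV score was 5.34 in cxC26 scr replicate 2 and 4.98 to 4.99 in the other control tumors. Paralogs near the limit of detection count fully in that score. In cxC26 IL6KOs1 replicate 1, Cox4i2 stood apart at 0.59 log2 CPM (others -0.95 to -0.70), Ndufa4 at 6.62 (others 7.04 to 7.10) and Sdha at 8.15 (others 8.24 to 8.26). In cxC26 IL6KOs1 replicate 2, Atp5b stood at 10.34 (others 10.09 to 10.10), Atp5g3 at 8.27 (others 7.81 to 7.89), Uqcrc2 at 6.89 (others 7.001 to 7.023) and Cs at 8.09 (others 7.84 to 7.87). Il6 was 2.46 in cxC26 IL6KOs1 replicate 3 (others 1.99 to 2.04), and Coq8b was 4.21 in cxC26 scr replicate 2 (others 4.59 to 4.67).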

How the results depend on the processing

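Of the members, 20 were called higher and 9 lower. Both counts stayed within 1.5 times these under the stricter filter, quantile normalization, median re-centring, precision weights and a pseudocount of 1 CPM. Higher calls were 10 without a filter, 12 without the variance trend and 11 after the GC content and length correction. After subtraction of the chromosome median 8 were higher and 2 lower, at a 2-fold threshold 1 and 0 (29 without that threshold), and among the members that neither overlap nor share sequence 8 and 5, of fewer genes. With the replicate number as a block, 19 were higher and 10 lower. The numbers do not pair the tumors (correlations of same-numbered tumors from -0.06 to 0.06, 2 of 8 tumors closest to their own number).

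The median over members moved from 0.145 to 0.0424 after the GC content and length correction, for complex I from 0.123 to 0.0259 and for complex V from 0.197 to 0.113. With the chromosome median removed it was -0.0451 for complex III and 0.0769 for complex V, and for complex V 0.00873 over members without overlap or shared sequence. The cause was not tested. With 1 tumor left out, 8 to 20 members were higher and 5 to 9 lower, with medians from 0.09 to 0.17 (members), 0.07 to 0.15 (complex I), 0.17 to 0.21 (II), -0.22 to -0.15 (III), 0.13 to 0.27 (IV) and 0.15 to 0.23 (V). Differences in log2 ratio then ran from -0.91 to -0.20 (Cox4i2), 0.98 to 1.59 (Cox6a2), 0.62 to 1.11 (Cox6b2), 0.14 to 0.55 (Cox7a1), -0.12 to 0.68 (Cox8b) and 0.39 to 1.02 (Ndufa4l2), too few tumors to pass 0.05. The Cox8b ratio changed sign with a pseudocount of 1 CPM (-0.10), without cxC26 scr replicate 1 (-0.12) and without cxC26 IL6KOs1 replicate 4 (-0.09). Depth limits the restricted paralogs, most of them under 30 reads per tumor.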
